A study of Mus musculus with 9 samples.

Results

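The genes examined here are 10 genes of the oxidative stress response, followed in B.END3 cells after photodynamic therapy (PDT). The group was chosen by gene name, with earlier results of these data known. It held 5 regulators of the transcription factor NRF2 (Nfe2l2, Keap1, Bach1, Mafg, Mafk) and 5 NRF2 targets or enzymes that remove reactive oxygen species, ROS (Nqo1, Sqstm1, Sod1, Sod2, Cat). These are 10 of the 54532 genes listed, and 10 of 10 were among the 11727 genes with at least 1 FPKM (fragments scaled to gene length and library depth) in at least 3 libraries. Between 20 J/cm2 and untreated cells, 9 of the 10 genes changed (limma, adjusted p below 0.05), as did 53.2% of all tested genes. All of the regulators except Keap1 were higher, and the targets and enzymes moved in both directions. The calls of Nfe2l2 and Sod1 held in only 10 and 11 of 18 alternative fits.

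NRF2, encoded by Nfe2l2, is held at a low level in resting cells by KEAP1, an adaptor that hands it to a CUL3 ubiquitin ligase for degradation, and oxidants or electrophiles that modify KEAP1 let NRF2 accumulate. In the nucleus NRF2 pairs with a small MAF protein such as MAFG or MAFK on antioxidant response elements, while BACH1, a repressor that is removed when it binds heme, pairs with the same small MAF proteins on the same elements. The response is known for quinone reduction (NQO1), glutathione and heme metabolism, and p62 (Sqstm1), which binds KEAP1 and carries it to autophagosomes. Superoxide dismutases (SOD1 in the cytosol, SOD2 in mitochondria) and catalase (CAT, in peroxisomes) remove superoxide and hydrogen peroxide.

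Porfimer sodium is a porphyrin photosensitizer that yields ROS under red light. RNA sequencing covered 3 untreated libraries (Ctrl), 3 libraries of cells at a light dose of 10 J/cm2 (Ep1), and 3 at 20 J/cm2 (Ep2). Both treated groups were monolayers kept in medium with 300 µg/mL porfimer sodium for 90 min before a 635 nm laser at 100 mW/cm2. All 9 libraries are labelled as the strain C57BL/6. No library received the photosensitizer or the light alone, so the effects of both cannot be told apart, and the time between irradiation and lysis is not given in the sources used here. The labels do not say whether the 3 libraries of a group came from separate cultures, so p-values measure the spread between these libraries, which may be technical. B.END3 is labelled a mouse brain endothelial line, although the culture description calls it rat.

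The fragments counted on genes ranged from 16240688 to 19509225 per library, and each of the 10 genes held between 1190 and 37947 fragments in every library. The share of fragments on the mitochondrial genome was 1.90% to 1.99% in Ctrl, at most 2.08% in Ep1, and 2.04% to 2.49% in Ep2. Of 15 endothelial markers, only Flt1, Eng, and Egfl7 passed the filter, Pecam1 and Cdh5 stayed below 1 FPKM on average in each group, and Emcn, Erg, and Sox17 were listed at 0 throughout. The keratins Krt8, Krt18, and Krt19, which mark epithelial cells, had means of 640, 237, and 174 FPKM in Ctrl. The other epithelial markers were low or absent, with 0.812 FPKM of Epcam and 0.0338 of Cdh1 on average in Ctrl and Krt7 listed at 0 throughout, so the summed epithelial level is nearly all keratin. The summed level of the 15 endothelial markers was 11.7 to 12.4 FPKM in Ctrl, 11.8 to 13.4 in Ep1, and 14.8 to 15.9 in Ep2, and that of 6 epithelial markers was 1030 to 1080, 937 to 1040, and 1160 to 1370 FPKM. Flt1 held the largest part of the endothelial sum, with means of 6.90, 7.25, and 10.9 FPKM in Ctrl, Ep1, and Ep2. Egfl7 and Eng, which also passed the filter, had means of 2.09 and 1.32 FPKM in Ctrl, and 1.65 and 1.13 in Ep2. The higher sum in Ep2 thus does not stand for the endothelial markers as a class. The endothelial label is thus not borne out by most of its defining markers, and the part of these markers in the results was not tested. Markers of pericytes, astrocytes, and microglia did not pass the filter in any instance, while Col1a1 and Tubb3 passed among the fibroblast and neuron markers. In such bulk libraries, fewer cells of a type and less RNA per cell cannot be told apart.

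The promoter letters of these genes were searched for the core of the antioxidant response element, TGACNNNGC, on both strands, because this is the element that NRF2, BACH1, and the small MAF proteins share. All 10 genes matched the RefSeq promoter windows of build GRCm38.p6, each with 250 bases before and 50 after the start. Of the 10 windows, 4 held the core (Nfe2l2, Mafg, Mafk, and Sod1), against 12.4% of all 32851 windows of this length. The AP-1 element TGANTCA, found in 7.81% of all windows, and the Maf recognition element, a longer sequence that can hold the core, found in 0.387%, were in 0 of the 10. In Nfe2l2 the core was TGACTCCGC on the strand of the gene, from base -240 to -232 (chr2:75704895-75704903), counted from 0 at the start. On the opposite strand, Mafg held TGACCGTGC from -222 to -214 (chr11:120633761-120633769), Mafk TGACACCGC from -13 to -5 (chr5:139791523-139791531), and Sod1 TGACCACGC from -56 to -48 (chr16:90220706-90220714). Such a match is a description of letters, and a window without one says nothing about elements farther away. The 250 bases before the start are shown for these 4 genes and for Bach1, the gene with the largest change, which held no match. The strands are minus for Nfe2l2 and Mafg and plus for Mafk, Sod1, and Bach1, the regions are chr2:75704664-75704913, chr11:120633548-120633797, chr5:139791286-139791535, chr16:90220512-90220761, and chr16:87698704-87698953 in this order, and capitals mark the core on either strand.
Nfe2l2: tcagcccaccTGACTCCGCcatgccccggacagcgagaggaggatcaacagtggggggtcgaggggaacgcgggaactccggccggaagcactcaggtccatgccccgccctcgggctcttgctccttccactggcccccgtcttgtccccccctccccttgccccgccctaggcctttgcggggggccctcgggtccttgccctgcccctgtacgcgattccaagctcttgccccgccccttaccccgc
Mafg: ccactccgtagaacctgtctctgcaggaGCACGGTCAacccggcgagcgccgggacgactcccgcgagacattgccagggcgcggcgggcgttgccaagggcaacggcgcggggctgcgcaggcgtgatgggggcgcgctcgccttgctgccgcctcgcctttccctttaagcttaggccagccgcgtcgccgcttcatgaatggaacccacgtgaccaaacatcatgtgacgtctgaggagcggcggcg
Mafk: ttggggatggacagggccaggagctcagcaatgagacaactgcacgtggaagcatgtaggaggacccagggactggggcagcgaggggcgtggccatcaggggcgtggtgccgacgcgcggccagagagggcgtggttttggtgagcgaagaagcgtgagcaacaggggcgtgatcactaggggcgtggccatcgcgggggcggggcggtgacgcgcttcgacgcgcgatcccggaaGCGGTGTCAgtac
Sod1: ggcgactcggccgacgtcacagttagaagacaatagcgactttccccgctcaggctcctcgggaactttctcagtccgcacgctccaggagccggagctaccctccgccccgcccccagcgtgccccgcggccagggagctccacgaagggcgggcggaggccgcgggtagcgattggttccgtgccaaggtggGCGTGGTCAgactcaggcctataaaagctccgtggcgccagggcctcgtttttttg
Bach1: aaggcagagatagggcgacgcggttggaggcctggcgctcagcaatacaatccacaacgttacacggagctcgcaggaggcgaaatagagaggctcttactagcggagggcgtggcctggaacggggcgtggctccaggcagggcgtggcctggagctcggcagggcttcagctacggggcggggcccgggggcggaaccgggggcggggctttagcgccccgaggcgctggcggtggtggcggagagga

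Levels were compared with limma on log2(FPKM + 1), fitted across all 11727 genes and all 9 libraries, and a gene was called at a Benjamini-Hochberg adjusted p-value below 0.05. Between Ep1 and Ctrl, 4 of the 10 genes (40.0%) were called, 3 higher and 1 lower, against 11.3% of all tested genes (6.32% higher, 4.97% lower). Between Ep2 and Ctrl, 9 genes (90.0%) were called, 6 higher and 3 lower, against 53.2% of all tested genes (23.9% higher, 29.3% lower). Between Ep2 and Ep1, 7 genes (70.0%) were called, 5 higher and 2 lower, against 44.0% (18.8% higher, 25.2% lower). The changes were moderate. The median absolute log2 fold change of the 10 genes was 0.18, 0.30, and 0.24 in these comparisons, against 0.11, 0.23, and 0.19 over all tested genes, and only Bach1 in Ep2 exceeded 0.6, a size that 0.793%, 9.17%, and 5.9% of all tested genes passed together with an adjusted p-value below 0.05 in the 3 comparisons. The libraries of the groups did not overlap for 7 of the 10 genes between Ep1 and Ctrl (41.3% of all tested genes), for 9 between Ep2 and Ctrl (59.7%), and for 7 between Ep2 and Ep1 (54.4%). Both doses were compared with the same Ctrl libraries, so the first 2 sets of values share their reference.

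The counts in Ep1 rested on single libraries. Without Ctrl replicate 1, 2, or 3, or Ep1 replicate 1 or 3, the 2 genes called were Bach1 and Mafk in each fit. Of all tested genes, 1324 were called in Ep1 with the full set of libraries, against 392 or 193 when Ctrl replicate 1 or 2 was omitted, 378, 842, or 191 when Ep1 replicate 1, 2, or 3 was omitted, and 2183 when Ep2 replicate 1 was omitted.

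**Figure D1:**
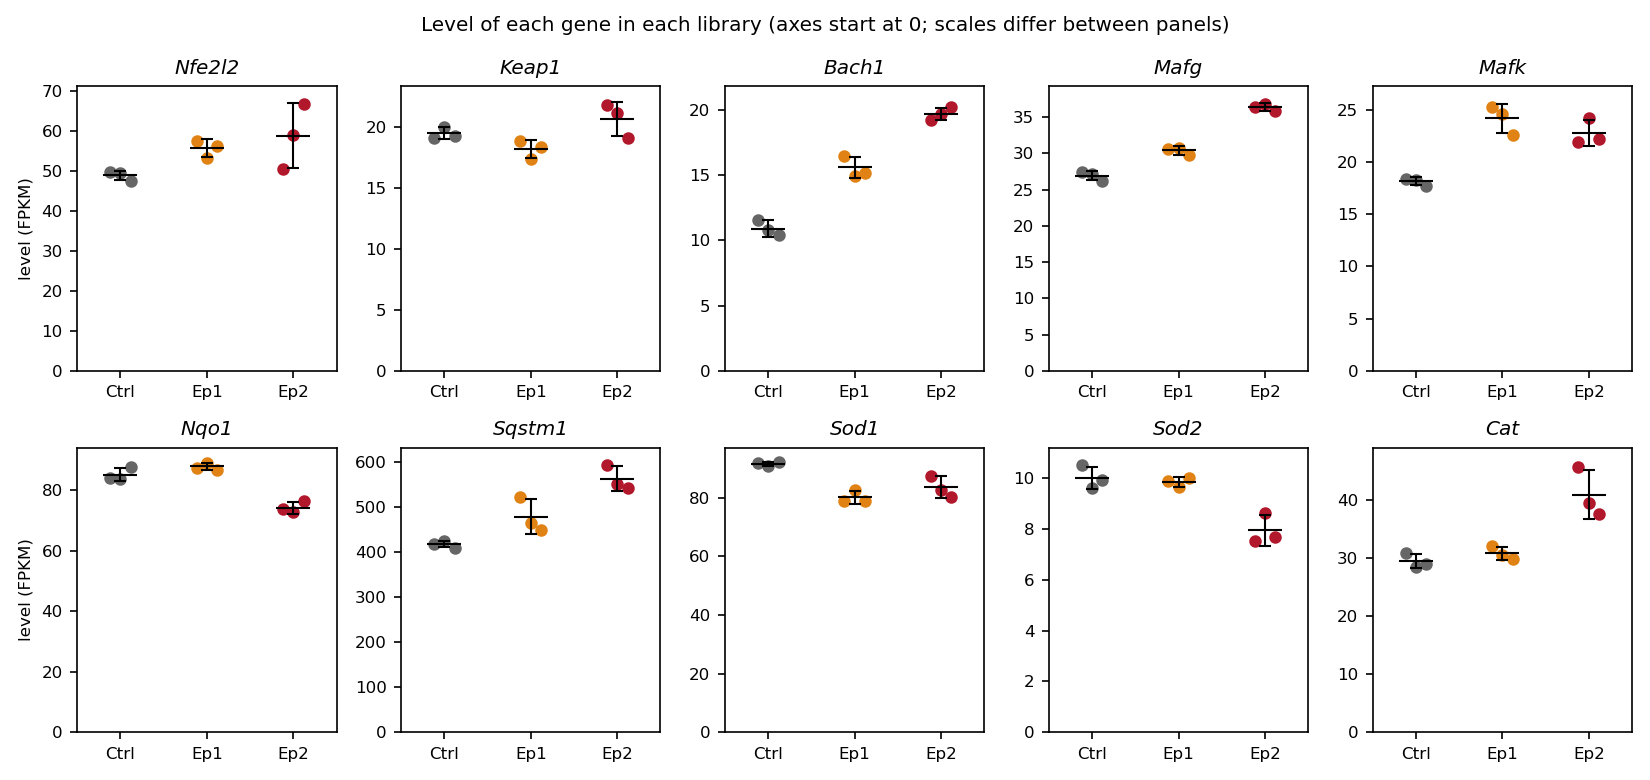
Level of each of the 10 genes in FPKM (vertical axis from 0, scaled per gene) in each library of Ctrl, Ep1, and Ep2 (points), with the group mean (bar) and SD (whiskers, n = 3). Bach1 and Mafg lie in 3 separate steps from Ctrl to Ep2, while Nqo1 and Sod2 are lower in all 3 Ep2 libraries than in any other library.

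Nfe2l2 (ENSMUSG00000015839, chromosome 2, 75675513 to 75704641 in GRCm38, as for all positions of genes here), the gene of NRF2 itself, had 49.7, 49.3, and 47.5 FPKM in the Ctrl libraries, 57.5, 53.1, and 56.1 in Ep1, and 50.4, 59.0, and 66.7 in Ep2. The treated libraries all lay above the Ctrl libraries, but Ep2 replicate 1 only narrowly, and the Ep2 libraries spread the most. The mean was 48.8 ± 1.21 FPKM in Ctrl, against 55.6 ± 2.25 in Ep1 and 58.7 ± 8.15 at the Ep2 dose (SD, n = 3 each). The log2 fold change was 0.18 in Ep1 (95% interval -0.01 to 0.37, limma, adjusted p = 0.19), and Nfe2l2 rose by 0.25 in Ep2 (0.06 to 0.44, adjusted p = 0.0319). The value in Ep2 did not exceed that in Ep1 beyond their spread (0.07, -0.12 to 0.26, adjusted p = 0.546).

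The call of Nfe2l2 in Ep2 was not stable. Its adjusted p-value was 0.0620 without Ctrl replicate 1, 0.0680 without Ctrl replicate 2, 0.0876 without Ctrl replicate 3, 0.0794 without Ep2 replicate 2, and 0.0863 without Ep2 replicate 3, where the log2 fold change was 0.16. It was 0.0882 without the filter on low values and 0.0618 in a fit of only Ctrl and Ep2. Without Ep2 replicate 1 the fold change was 0.35. In Ep1 the adjusted p-value was 0.0426 without Ep2 replicate 1 and 0.0243 in a fit of only Ctrl and Ep1, and between Ep2 and Ep1 it was 0.0400 without Ep2 replicate 1, at a log2 difference of 0.17, while without Ep2 replicate 3 the difference was -0.03. The mitochondrial share of fragments was 2.04%, 2.27%, and 2.49% in Ep2 replicates 1, 2, and 3, the same order as the Nfe2l2 levels, and its part in them was not tested.

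Keap1 (ENSMUSG00000003308, chromosome 9, 21229730 to 21239361), the inhibitor of NRF2, had 19.1, 20.0, and 19.3 FPKM in Ctrl, against 18.9, 17.4, and 18.4 in Ep1, and 21.8, 21.2, and 19.1 in Ep2. Ep1 libraries lay just under the Ctrl libraries, and Ep2 libraries overlapped with them. Neither dose differed from Ctrl past the threshold, with log2 fold changes of -0.09 in Ep1 (-0.22 to 0.03, adjusted p = 0.312) and 0.08 in Ep2 (-0.04 to 0.21, adjusted p = 0.252). Without Ep2 replicate 3 the latter was 0.13 (adjusted p = 0.0489). Keap1 was higher in Ep2 than in Ep1 by 0.17 on the log2 scale (0.05 to 0.30, adjusted p = 0.0321). This call was lost without Ep1 replicate 2 (adjusted p = 0.116), Ep1 replicate 3 (0.0697), Ep2 replicate 1 (0.0807), or Ep2 replicate 2 (0.0943), without the filter on low values (0.0783), and in a fit of only both treated groups (0.0650).

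The genes of the DNA-binding partners of NRF2 rose at both doses. Mafg (ENSMUSG00000051510, chromosome 11, 120625117 to 120633600) had 27.4, 27.1, and 26.2 FPKM in Ctrl, against 30.6, 30.8, and 29.7 in Ep1, and 36.4, 36.8, and 35.8 in Ep2. The 3 groups did not overlap and formed an ascending series. Mafg rose by 0.17 on the log2 scale in Ep1 (0.09 to 0.25, adjusted p = 0.0233) and by 0.42 in Ep2 (0.34 to 0.51, adjusted p = 2.27e-05), and it was higher in Ep2 than in Ep1 by 0.25 (adjusted p = 0.000586). The small rise in Ep1 was lost when any one of the 6 libraries compared was left out (adjusted p = 0.0551 to 0.0884) and without the filter on low values (0.0578).

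Mafk (ENSMUSG00000018143, chromosome 5, 139791513 to 139802653) had 18.4, 18.3, and 17.7 FPKM in Ctrl, against 25.3, 24.6, and 22.6 in Ep1, and 21.9, 24.2, and 22.2 in Ep2. All treated libraries lay above Ctrl, and both doses overlapped with each other. The rise was 0.39 on the log2 scale in Ep1 (0.27 to 0.51, adjusted p = 0.00704) and 0.31 in Ep2 (0.19 to 0.43, adjusted p = 0.00116), with no call between the doses (-0.08, -0.20 to 0.04, adjusted p = 0.253). In each library, Mafk can be set against Mafg, and this ratio of FPKM was 0.675 ± 0.00152 in Ctrl, against 0.795 ± 0.0328 in Ep1 and 0.626 ± 0.0280 at the Ep2 dose (SD, n = 3 each).

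Bach1 (ENSMUSG00000025612, chromosome 16, 87698945 to 87733346), the gene of the repressor, changed most of the 10 genes. Its level was 11.6, 10.8, and 10.4 FPKM in Ctrl, against 16.5, 14.9, and 15.2 in Ep1, and 19.2, 19.7, and 20.2 in Ep2. The groups were fully separated, and the mean went from 10.9 ± 0.644 to 15.6 ± 0.828 and 19.7 ± 0.484 FPKM (SD, n = 3 each), which was 42.1% higher in Ep1 and 80.0% higher in Ep2 than in Ctrl. The log2 fold change was 0.47 in Ep1 (SE 0.055, adjusted p = 0.00521), 0.79 in Ep2 (SE 0.055, adjusted p = 7e-06), and 0.32 between the doses (adjusted p = 0.00128). These calls held in each of the 18 alternative fits, with adjusted p-values in Ep1 of at most 0.0313.

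**Figure D2:**
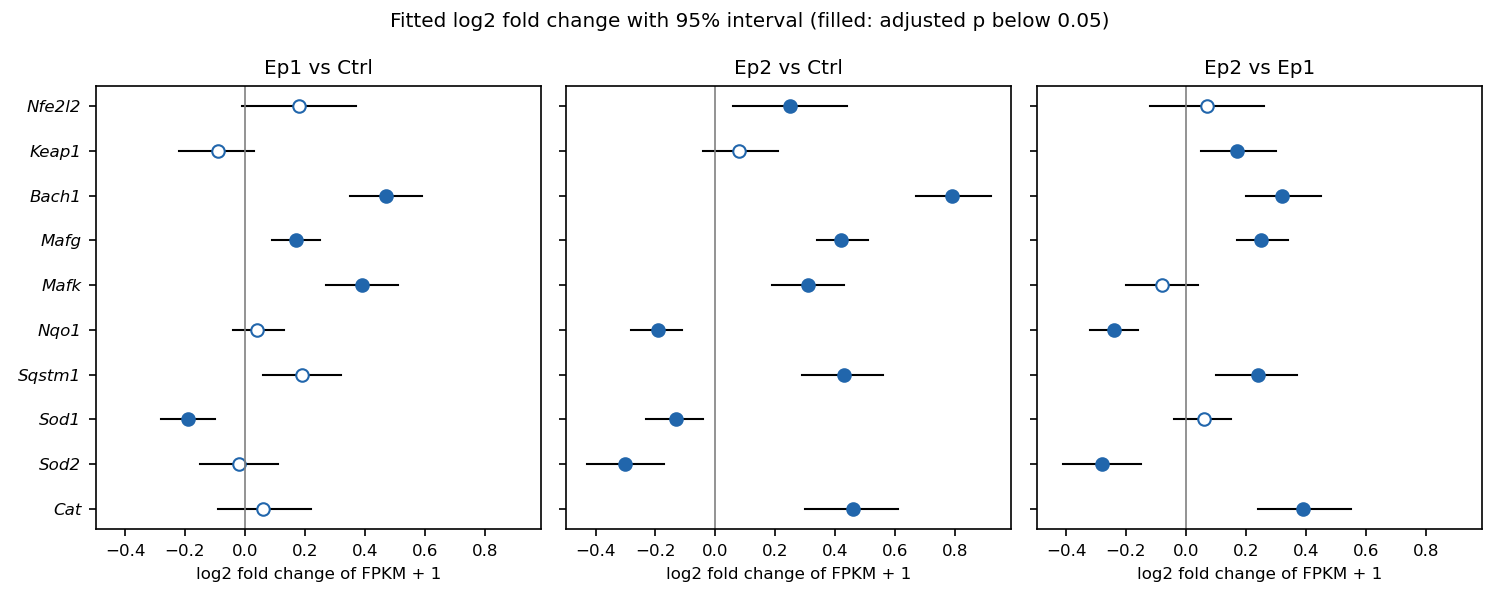
Fitted difference in log2(FPKM + 1) (horizontal axis) of the 10 genes (rows) in the 3 comparisons, with the 95% interval of limma (line) and filled points for an adjusted p-value below 0.05. Bach1 lies farthest to the right in each comparison with Ctrl, and Nqo1, Sod1, and Sod2 lie left of 0 in Ep2 compared with Ctrl.

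Within each library, the levels of regulators and targets can be set against each other, since FPKM is per gene length. The pairs were chosen after their values were seen, and the ratios are given without a test. For each unit of Nfe2l2 there was 0.224 ± 0.00881 of Bach1 in Ctrl, against 0.280 ± 0.00790 in Ep1 and 0.339 ± 0.0395 at the Ep2 dose (SD, n = 3 each), and the 3 groups did not overlap (0.218 to 0.234, 0.271 to 0.287, and 0.302 to 0.381). The level of the repressor gene relative to the activator gene was thus higher in every treated library than in every Ctrl library. Sqstm1 relative to Keap1 went from 21.5 ± 0.467 in Ctrl to 26.2 ± 1.71 in Ep1 and 27.2 ± 1.22 in Ep2. Nqo1 relative to Nfe2l2 was 1.69 to 1.85 in Ctrl, 1.52 to 1.68 in Ep1, and 1.15 to 1.46 in Ep2. Cat relative to Sod1 was 0.314 to 0.335, 0.369 to 0.406, and 0.468 to 0.522, again without overlap.

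**Figure D3:**
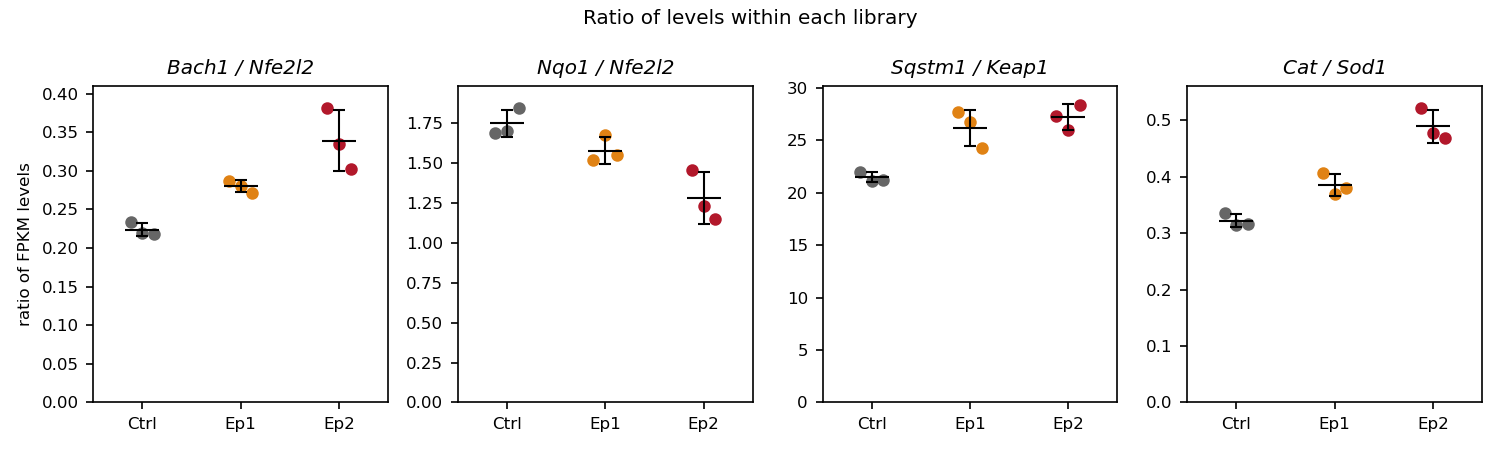
Ratio of FPKM levels of 4 gene pairs within each library (vertical axis from 0) for Ctrl, Ep1, and Ep2 (points), with the group mean (bar) and SD (whiskers, n = 3). Bach1 relative to Nfe2l2 and Cat relative to Sod1 are higher in every Ep2 library than in every Ctrl or Ep1 library, and Nqo1 relative to Nfe2l2 is lower.

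Nqo1 (ENSMUSG00000003849, chromosome 8, 107388225 to 107403206), a quinone reductase often used as a readout of NRF2, did not follow the regulators. It had 84.2, 83.7, and 87.6 FPKM in Ctrl, against 87.5, 89.2, and 86.9 in Ep1, and 73.7, 72.7, and 76.5 in Ep2. Ep1 libraries overlapped with Ctrl, and all Ep2 libraries were lower than both. The log2 fold change in Ep1 was 0.04 (-0.04 to 0.13, adjusted p = 0.46), an interval that leaves room for a rise of at most 0.13. In Ep2 Nqo1 fell by 0.19 (-0.28 to -0.11, adjusted p = 0.00179), and it was lower than in Ep1 by 0.24 on the log2 scale (-0.32 to -0.16, adjusted p = 0.000806). With a gene length trend removed from each library, the change of Ep2 from Ctrl was -0.08 (adjusted p = 0.139), whereas that from Ep1 was still called (adjusted p = 0.0138).

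Sqstm1 (ENSMUSG00000015837, chromosome 11, 50199366 to 50210827), the gene of the autophagy receptor p62, was the most abundant of the 10 genes and ranked 74 among all listed genes by its mean. It had 419, 424, and 410 FPKM in Ctrl, against 522, 464, and 449 in Ep1, and 593, 552, and 543 in Ep2. The 3 groups were separated, with a wide spread in Ep1. Sqstm1 rose by 0.43 on the log2 scale in Ep2 (0.29 to 0.56, adjusted p = 0.000281), 34.7% above Ctrl, and was higher in Ep2 than in Ep1 by 0.24 (0.10 to 0.37, adjusted p = 0.00998). In Ep1 the log2 fold change of 0.19 (0.06 to 0.32) missed the threshold (adjusted p = 0.0653). It passed with voom on the fragments (adjusted p = 0.0172), with the stricter filter (0.0477), and without Ep2 replicate 1 (0.0410).

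Sod1 (ENSMUSG00000022982, chromosome 16, 90220754 to 90226329), the cytosolic dismutase, was lower in every treated library. Its levels were 91.8, 90.7, and 92.0 FPKM in Ctrl, against 79.0, 82.7, and 78.7 in Ep1, and 87.5, 82.7, and 80.2 in Ep2. Sod1 fell by 0.19 on the log2 scale in Ep1 (-0.28 to -0.10, adjusted p = 0.0235) and by 0.13 in Ep2 (-0.23 to -0.04, adjusted p = 0.0233). All treated libraries lay below the Ctrl libraries, and the doses overlapped, but both calls depended on single libraries. That in Ep1 was lost without Ctrl replicate 1 (adjusted p = 0.0778), 2 (0.0875), or 3 (0.0516) or Ep1 replicate 1 (0.0800) or 3 (0.0946), and without the filter on low values (0.0639). That in Ep2 was lost without Ctrl replicate 1 (adjusted p = 0.0638), 2 (0.0536), or 3 (0.0574) or Ep2 replicate 2 (0.0647) or 3 (0.0687), after median centring of the libraries (-0.09, adjusted p = 0.112), and after the correction for gene length (-0.06, adjusted p = 0.258). Between the doses Sod1 differed by 0.06 (-0.04 to 0.15, adjusted p = 0.287). With median centring this was 0.11 (adjusted p = 0.0490), and with the correction for gene length 0.12 (adjusted p = 0.0493).

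Sod2 (ENSMUSG00000006818, chromosome 17, 13006846 to 13040063), the mitochondrial dismutase, had 10.5, 9.60, and 9.92 FPKM in Ctrl, against 9.88, 9.63, and 10.0 in Ep1, and 7.51, 8.62, and 7.67 in Ep2. Only the Ep2 libraries stood apart, below all others. In Ep1 the log2 fold change was -0.02 (-0.15 to 0.11, adjusted p = 0.862), and it turned to 0.01 without Ctrl replicate 1. Sod2 fell in Ep2 by 0.30 relative to Ctrl (-0.43 to -0.17, adjusted p = 0.00178) and by 0.28 relative to Ep1 (-0.41 to -0.15, adjusted p = 0.00348), and these 2 calls held in each of the 18 alternative fits.

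Cat (ENSMUSG00000027187, chromosome 2, 103453849 to 103485160), the gene of catalase, moved opposite to both dismutases at the higher dose. The call of Sod1 there held in only 11 of 18 alternative fits. The levels of Cat were 30.8, 28.5, and 29.0 FPKM in Ctrl, against 32.1, 30.5, and 29.9 in Ep1, and 45.7, 39.5, and 37.5 in Ep2. Ep1 overlapped with Ctrl, and Ep2 lay above both groups. Cat rose by 0.46 on the log2 scale in Ep2 (0.30 to 0.61, adjusted p = 0.000492), 38.9% above Ctrl, and was higher in Ep2 than in Ep1 by 0.39 (0.24 to 0.55, adjusted p = 0.00164), while the change in Ep1 was 0.06 (-0.09 to 0.22, adjusted p = 0.582). The calls in Ep2 held in each of the 18 alternative fits.

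By level per gene length, Sqstm1 came first in Ctrl (418 ± 6.71 FPKM), followed by Sod1 (91.5 ± 0.687), Nqo1 (85.2 ± 2.11), Nfe2l2 (48.8 ± 1.21), Cat (29.4 ± 1.2), Mafg (26.9 ± 0.618), Keap1 (19.5 ± 0.496), Mafk (18.2 ± 0.390), Bach1 (10.9 ± 0.644), and Sod2 (9.99 ± 0.431; SD, n = 3 each). Only Bach1 and Sod2 overlapped among neighbours in this order. In Ep1, Nqo1 stood above Sod1 and Mafk above Keap1, and Cat and Mafg overlapped. In Ep2, Sod1 again stood above Nqo1, Mafk remained above Keap1, and Bach1 had reached the range of Keap1. The FPKM rest on the listed gene lengths, from 1553 bases for Nqo1 to 10008 for Sod2.

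Several of these genes share positions with other listed genes, and the strand setting of the counting is not given in the sources used here. Sod1 overlaps Scaf4 on the opposite strand over 650 bases (14.8, 15.8, and 14.4 FPKM of Scaf4 on average in Ctrl, Ep1, and Ep2), and Sqstm1 overlaps Mrnip on the opposite strand over 750 bases (at most 2.03 FPKM). Mafg overlaps Sirt7 on the same strand over 124 bases (at most 7.93 FPKM). The longest overlap is that of Keap1 with Gm16754 on the opposite strand, over 3317 bases. Gm16754 had 0.406, 0.416, and 0.724 FPKM on average in Ctrl, Ep1, and Ep2. Mafk overlaps Tmem184a on the opposite strand over 169 bases (at most 0.0114 FPKM). Nfe2l2 overlaps Gm24996 on the same strand over 99 bases (at most 4.77 FPKM). Reads in these stretches could not be told apart.

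To place 3 of the genes among all others, the profiles over the 9 libraries of log2(FPKM + 1), each centred on its own mean, were compared by their root mean square difference. The nearest to Nfe2l2, whose own profile varied by 0.145, were Usp31, which encodes a ubiquitin-specific protease (difference 0.0274), 9930021J03Rik (0.0281), and Sec24a of the COPII vesicle coat (0.0408). Usp31 had 7.14 ± 0.210 FPKM in Ctrl, against 8.17 ± 0.203 in Ep1, and 8.59 ± 1.29 in Ep2. Since Usp31 was picked for its likeness to Nfe2l2 over these libraries, a wide spread in Ep2 follows from the choice. Nearest to Nqo1 were Ttc37 (0.0216), the translation initiation factor gene Eif1ax (0.0222), and Arfgap2 (0.0231), and nearest to Sqstm1 were Yipf5 (0.0348), the kinase gene Stk24 (0.0415), and Rtn4 (0.0450). These are descriptions over 9 libraries that share their groups.

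Among the relatives of these factors, Nfe2, Nfe2l3, and Bach2 stayed under the filter, and Maff and Nfe2l1 were tested. Maff, the third small MAF gene, rose like Mafk at both doses, from 24.9 FPKM on average in Ctrl to 37.8 in Ep1 (log2 fold change 0.58, SE 0.077, adjusted p = 0.00600) and 38.4 in Ep2 (0.60, adjusted p = 0.000176), and it did not differ past the threshold between the doses (0.02, adjusted p = 0.853). Nfe2l1, the gene of the NRF2 relative NRF1, had a log2 fold change of -0.12 in Ep2 (adjusted p = 0.0304), which was lost without Ctrl replicate 1 or 2 or Ep2 replicate 2 or 3 (adjusted p of up to 0.110) and with median centring or the correction for gene length (up to 0.149).

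Of 11 genes that act in the turnover of the NRF2 protein, 2 were higher and 0 lower in Ep1, and 3 were higher and 4 lower in Ep2, with medians of -0.03 and -0.08. The shares called, 18.2% and 63.6%, were near those of all tested genes, 11.3% and 53.2%. Gsk3b, whose kinase marks NRF2 for a KEAP1-independent ubiquitin ligase, rose from 8.53 to 10.7 FPKM in Ep1 (log2 fold change 0.30, adjusted p = 0.00879) and to 12.4 in Ep2 (0.50, adjusted p = 2.89e-05). Cul3, the scaffold of the ligase that KEAP1 serves, rose from 25.4 to 32.4 FPKM in Ep1 (0.34, adjusted p = 0.00975, but 0.0502 without Ctrl replicate 2) and to 31.5 in Ep2 (0.30, adjusted p = 0.00140). Dpp3, whose product competes with NRF2 for KEAP1, fell by 0.30 in Ep2 (adjusted p = 0.000954). The other 3 genes lower in Ep2, Btrc, Palb2, and Pgam5, were less stable, and the number of lower genes was 2 without Ctrl replicate 1 or 3 and 1 without Ctrl replicate 2 or Ep2 replicate 2. Btrc lay near the filter, with means of 1.14 FPKM in Ctrl and 0.782 in Ep2. The remaining gene higher in Ep2 was Fbxw11, with means of 45.8 FPKM in Ctrl and 51.2 in Ep2. Between the doses, where 44.0% of all tested genes were called, 1 gene was higher (Gsk3b) and 1 lower (Dpp3, -0.18, adjusted p = 0.0200, and 0.0734 without Ep1 replicate 2).

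Of 24 further NRF2 targets, 23 were tested, and 10 were higher and 0 lower in Ep1 (43.5% called), 13 higher and 4 lower in Ep2 (73.9%), with median log2 fold changes of 0.15 and 0.37. Of all tested genes, 11.3% were called in Ep1 (6.32% higher) and 53.2% in Ep2 (23.9% higher, 29.3% lower), and the median of all tested genes was -0.01 and -0.03. Slc7a11, the cystine transporter gene, had the smallest adjusted p-values at both doses and rose from 5.42 FPKM in Ctrl to 11.5 in Ep1 (0.96, SE 0.070, adjusted p = 0.00121) and 16.4 in Ep2 (1.44, SE 0.070, adjusted p = 2.17e-06). The 4 targets lower in Ep2 were G6pdx, the first enzyme of the pentose phosphate pathway (63.1 and 45.6 FPKM in Ctrl and Ep2, a change of -0.46, adjusted p = 0.000101), Ephx1 (-0.69, adjusted p = 0.00262), Txn1 (-0.31, adjusted p = 0.00212), and Tkt (-0.13, adjusted p = 0.0326, and up to 0.107 without Ctrl replicate 1 or 2 or Ep2 replicate 2 or 3). Blvrb, with a log2 fold change of -0.18 in Ep1 (adjusted p = 0.162), had the smallest adjusted p-value among targets with lower values there. Between the doses 10 targets were higher and 4 lower in Ep2 (60.9% called, against 44.0% of all tested genes), led by Me1, an NADPH-producing enzyme gene (0.59, adjusted p = 0.000151), and by G6pdx (-0.46, adjusted p = 0.000152). The count in Ep1 rested on single libraries, with 5 genes when Ctrl replicate 1 or Ep1 replicate 1 was omitted and 4 when Ctrl replicate 2 or Ep1 replicate 3 was. Slc7a11, Gclc, Gclm, and Hmox1, of which the latter 3 were singled out after their values were seen, were called in Ep1 in each of the 18 alternative fits. Gclc and Gclm, the subunits of the enzyme that starts glutathione synthesis, had log2 fold changes of 0.38 and 0.62 in Ep1, and Hmox1, the gene of the heme-degrading enzyme HO-1 and a classic BACH1 target, had 1.29 (21.3 to 53.5 FPKM, adjusted p = 0.00823), and 1.52 in Ep2. The Ep2 libraries of Hmox1 had 86.0, 52.4, and 54.7 FPKM. Only replicate 1 of these lay above the Ep1 libraries (59.0, 51.9, and 49.4 FPKM).

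Of 19 other enzymes that remove ROS, or their helpers, 16 were tested, and in Ep2 most had lower values, as Sod1 and Sod2 did. In Ep1, 0 of the 16 were called by limma, 7 had an unadjusted p-value below 0.05, the smallest adjusted p-value was 0.0521 (Gpx4, the lipid peroxide reductase gene, log2 fold change -0.22), and the alternative fits called between 0 and 3, all lower. Prdx6, a peroxiredoxin gene, led those with higher values there (0.08, adjusted p = 0.238). In Ep2, 2 were higher and 10 lower than in Ctrl (75.0% called, median -0.26), against 53.2% of all tested genes (29.3% lower). Compared with Ep1, 3 were higher and 9 lower (75.0%, median -0.20), against 44.0% of all tested genes (25.2% lower). Txn2, the mitochondrial thioredoxin gene, fell from 41.9 to 25.9 FPKM (-0.67 on the log2 scale, adjusted p = 9.68e-06), and it was also lower than in Ep1 (-0.57, adjusted p = 3.36e-05). Gpx8, which encodes a peroxidase of the endoplasmic reticulum, rose from 40.3 to 62.3 FPKM (0.62, adjusted p = 7.58e-06) and was higher than in Ep1 by 0.56 (adjusted p = 1.89e-05). The other gene higher than in Ctrl was Prdx5 (0.26, adjusted p = 0.00687). Singled out after their values were seen, Ccs, whose product delivers copper to SOD1, fell from 21.3 to 14.4 FPKM in Ep2 (-0.54, adjusted p = 0.000219), and Prdx3, the mitochondrial peroxiredoxin gene, from 66.6 to 42.9 FPKM (-0.62, adjusted p = 2.06e-05). The counts of this list in Ep2 varied between fits. With single libraries left out, 9 or 10 genes were lower than in Ctrl and 7 or 8 lower than in Ep1. After the correction for gene length, 3 were higher and 8 lower than in Ctrl, and 4 higher and 7 lower than in Ep1.

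**Figure D4:**
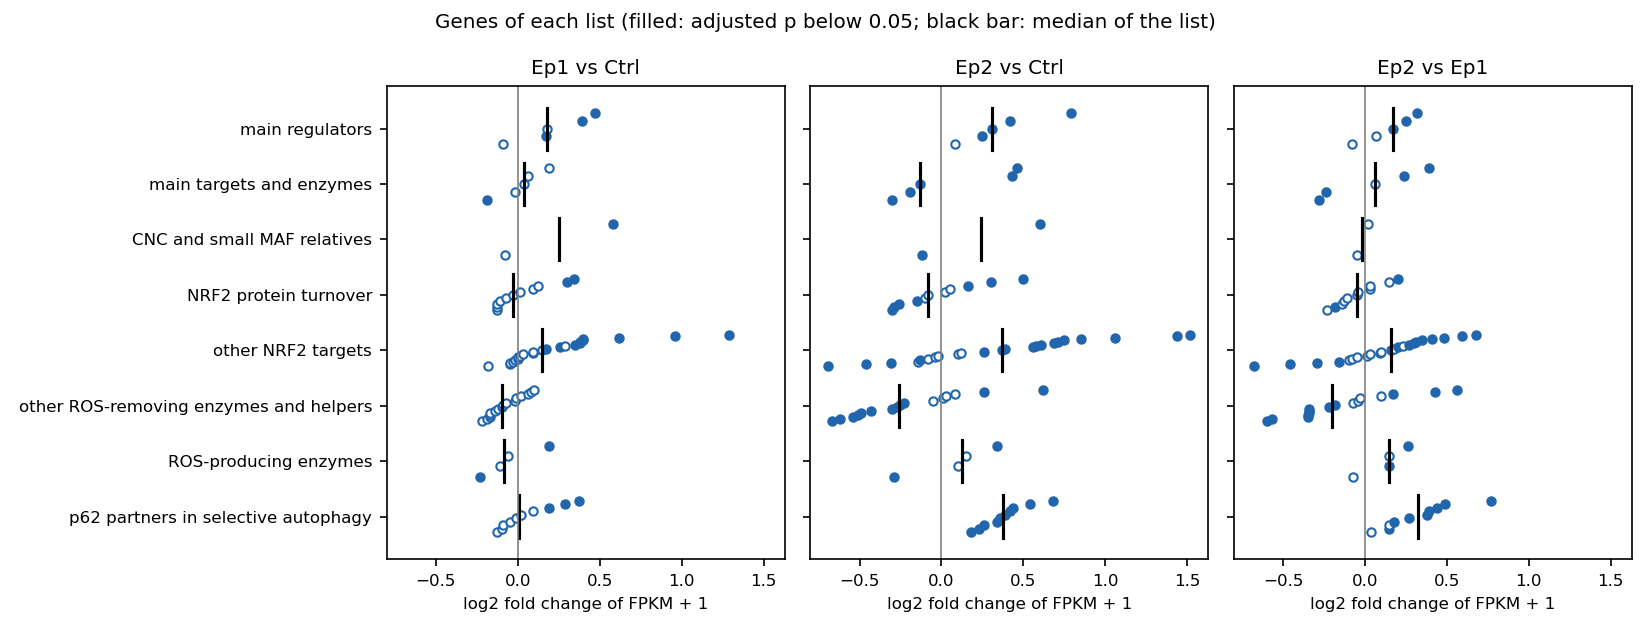
Fitted difference in log2(FPKM + 1) (horizontal axis) of each tested gene of 8 lists (rows, with the 10 main genes in the upper 2) in the 3 comparisons, filled for an adjusted p-value below 0.05, with the median of each list (black bar). In Ep2 compared with Ctrl, all 10 p62 partners lie right of 0 (median 0.37), and most other ROS-removing enzymes lie left of it (median -0.26).

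On the side of ROS production, 4 of 13 listed genes were tested, and Cybb, which encodes the catalytic subunit of the phagocyte NADPH oxidase, was listed at 0. Rac1, a GTPase of that oxidase among many other roles, had a log2 fold change of 0.19 in Ep1 (adjusted p = 0.0288) and rose by 0.34 in Ep2 (adjusted p = 0.000186). Cyba, the p22phox subunit gene, had -0.23 in Ep1 (adjusted p = 0.0215) and fell by 0.29 in Ep2 (42.3 to 34.4 FPKM, adjusted p = 0.000744). Both calls in Ep1 were lost without Ctrl replicate 1 or 2 or Ep1 replicate 1 or 3 (adjusted p of up to 0.103 for Rac1 and 0.0920 for Cyba), and that of Rac1 also without Ctrl replicate 3. Xdh, the xanthine oxidoreductase gene, was higher in Ep2 than in Ep1 by 0.26 (adjusted p = 0.0107).

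The genes of p62 partners in selective autophagy (LC3 and GABARAP proteins, related receptors, and the kinase TBK1) were higher in Ep2, as was Sqstm1. Of 10 tested, 3 were higher and 0 lower in Ep1, 10 were higher in Ep2 than in Ctrl (100% called, median 0.37), and 8 were higher in Ep2 than in Ep1 (80.0%, median 0.33), while 6.32%, 23.9%, and 18.8% of all tested genes were called higher in these comparisons. Gabarap rose from 101 to 163 FPKM in Ep2 (0.68, adjusted p = 7.97e-06), and it was higher than in Ep1 by 0.77 (adjusted p = 7.15e-06). Gabarapl1 was already higher in Ep1 (42.5 to 55.2 FPKM, 0.37, adjusted p = 0.00873), and Calcoco1, a receptor gene, had -0.13 there (adjusted p = 0.190). Only Gabarapl1 was called in Ep1 without Ctrl replicate 1 or 2 or Ep1 replicate 1 or 3. In Ep2 9 of the 10 calls against Ctrl held in each of the 18 alternative fits, the exception being Nbr1 (adjusted p of up to 0.0585). Between the doses, the alternative fits called 6 to 9 genes higher, with 6 without Ep1 replicate 2 or 3.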

How the data were processed

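RNA was sequenced from 9 B.END3 libraries, 3 each of Ctrl, Ep1, and Ep2. The deposited values are FPKM per Ensembl gene, which the authors computed from aligned fragments. The submitters' processing notes name Bowtie 0.12.2 and mm8, the methods name GRCm39, and the gene coordinates overlap those of GRCm38 for 99.9% of 36418 genes compared and those of GRCm39 for 12.4%, so they are given as GRCm38. One table of all libraries was used, and the tables of single libraries held the same values (0 differed).

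Since the values were whole multiples of what 1 fragment is worth (100% of values within 0.05), fragments per gene were recovered for depth and for one alternative. FPKM were tested as log2(FPKM + 1) with limma 3.58.1 in R 4.3.3 (trend and robust), one fit of all 9 libraries on genes with at least 1 FPKM in at least 3 libraries, with Benjamini-Hochberg adjustment per comparison over 11727 genes. Fold changes are on the log2(FPKM + 1) scale, which understates changes of low genes. The methods' fold threshold (0.6 on the log2 scale) was an alternative, as were no filter, a filter at 5 FPKM, a pseudocount of 0.1, median centring, a loess correction for gene length (span 0.3), a replicate block, only the groups compared, voom on 14112 genes, no trend or robust estimation, and leaving out each library. All 10 genes are described, and from each pathway list the gene with the smallest adjusted p-value in each direction and comparison, and other genes of the lists were named after their values were seen. The genes and lists were chosen with earlier results of these data known. The scripts were tested on simulated data. Promoter windows are from RefSeq, GRCm38.p6.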

Additional observations from a re-analysis of the deposited data

How the results depend on the processing

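Bach1 and Mafk were called against Ctrl at both doses, and Mafg, Sqstm1, Sod2, and Cat in Ep2, in each of the 18 alternative fits. Of 540 values of the 10 genes under an alternative, 493 kept their direction and side of the threshold, 35 lost the call, 10 gained one, and 2 changed sign. The 4 genes called in Ep1 became 2 without the filter on low values and 2 to 6 when single libraries were left out, the 9 in Ep2 became 7 to 9, and the 7 between the doses 6 to 7. With a minimum log2 fold change of 0.6 the counts were 0, 1, and 0. In the fit with the replicate number as a block they were 5, 8, and 7 (Sqstm1 was gained in Ep1 and Nfe2l2 lost in Ep2). Same-numbered libraries of different groups had correlations of -0.0565 to 0.0744 in their deviations from the group means, and differently numbered ones -0.108 to 0.153. Of 9 libraries, 2 were closest to their own number. With 3 libraries a group, such correlations cannot show whether the numbers pair the samples, and the labels do not say. Without the filter, 396 genes of the whole table were called in Ep1 in place of 1324, with only the groups compared 2162.

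Signs turned only for values near 0. Between Ep1 and Ctrl these were Sod2 without Ctrl replicate 1 (-0.044 to 0.011 over the omitted libraries) and G6pdx with median centring (-0.005) and without Ep1 replicate 2 (-0.037 to 0.028). Between Ep2 and Ep1 they were Nfe2l1 with median centring (0.008), Nfe2l2 without Ep2 replicate 3 (-0.027 to 0.172), Gpx4 with median centring (0.021), with the length correction (0.047), and without Ep2 replicate 1 (-0.087 to 0.032), and Maff without Ep1 replicate 2 or 3 or Ep2 replicate 1 (-0.049 to 0.086). Their causes were not tested. With 3 libraries a group, the calls of Keap1 between the doses and of Sod1 against Ctrl lay near the threshold. They held in 12 of 18 alternative fits for Keap1, and in 12 (Ep1) and 11 (Ep2) for Sod1. Size alone did not decide this, since Nqo1 in Ep2 had -0.19, like Sod1 in Ep1, and was called in 17.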
